A study of Mus musculus with 4 samples.

Results

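Immediate-early genes are described here in the prostates of 4 groups of mice, by the transcripts of Fos, Fosb, Jun, Junb, Egr1, Egr2, Atf3, Ier2, Dusp1 and Nr4a1. These 10 genes were taken by name from the array annotation, out of 28090 genes on the arrays, and are covered by 12 of 41174 probes. The study crossed genotype, C57BL/6 or TRAMP, with a gavage of olive oil or of 600 mg/kg TmT, a mixture of vitamin E forms in which gamma-tocopherol predominates. TRAMP is a transgenic prostate tumour model, in which the probasin promoter of the rat drives the early genes of SV40 in prostate epithelium. All mice were males of 8 weeks, were kept on AIN-76A diet and were fasted overnight before dosing, and the prostates were frozen 12 hours after it. Each group had 3 mice and is represented by 1 array, and whether the RNA on an array was pooled from them is not stated in the labels. The spread between mice of a group was therefore not measured, no difference between 2 arrays was tested, and an error printed after ± on a difference is the scanner software's error of the spots. The strain on which the TRAMP mice were bred is not in the labels, so a genotype difference is one between lines and cannot be told apart from a difference in strain.

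Immediate-early genes are transcribed within minutes of a growth factor, stress or neural signal, without new protein being made first. Kinases of the MAPK family act on factors already bound at their promoters, the SRF and ELK factors at the CArG box and CREB at the cyclic AMP response element. Most of the products are transcription factors that switch on later genes, and some, such as the phosphatase DUSP1, switch the signal off again. Stress and handling of tissue are also known to set them off.

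The probes are 60 bases long. Junb is the one member with a pair of overlapping probes, and its values depend on which is read, so their sequences are shown. Both lie on the minus strand of chr8 in build mm9, the brighter at chr8:87500843-87500902 and the dimmer at chr8:87500881-87500940. They share 22 bases at chr8:87500881-87500902, and the brighter probe ends in 30 bases at chr8:87500843-87500872 that hold a run of alternating T and G of 13 bases, in capitals.
shared stretch: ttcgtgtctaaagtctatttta
last bases of the brighter Junb probe: tTGTGTGTGTGTGTttgactttttattgaa

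The promoters of the members that differed most between arrays are shown as the 150 bases before the start site, from RefSeq (GRCm38.p6). Capitals mark matches, on either strand, to the cyclic AMP response element TGACGTCA, to its shorter form TGACG, which also lies within the longer one, or to the Egr site GCGGGGGCG. The sequence of Dusp1 is chr17:26508473-26508622 on the minus strand, that of Nr4a1 is chr15:101266696-101266845 on the plus strand, and that of Fosb is chr7:19310046-19310195 on the minus strand.
Dusp1: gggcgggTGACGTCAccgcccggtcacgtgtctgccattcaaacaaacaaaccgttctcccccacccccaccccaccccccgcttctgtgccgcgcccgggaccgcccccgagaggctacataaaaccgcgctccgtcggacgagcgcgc
Nr4a1: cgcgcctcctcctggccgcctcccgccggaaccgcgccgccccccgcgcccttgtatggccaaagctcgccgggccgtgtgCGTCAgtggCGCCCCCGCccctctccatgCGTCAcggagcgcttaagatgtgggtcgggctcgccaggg
Fosb: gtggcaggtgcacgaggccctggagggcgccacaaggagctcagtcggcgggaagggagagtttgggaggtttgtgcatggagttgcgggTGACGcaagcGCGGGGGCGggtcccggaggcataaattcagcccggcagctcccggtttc

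Windows of 300 bases around the start site, most of these bases before it, were given for 8 of the 10 members, all but Egr1 and Ier2. A gene can have several windows, and the shares are of genes with a match in any of theirs. The whole response element TGACGTCA was found in Dusp1 alone, 143 to 136 bases before the start, and in 2.03% of all 27025 genes with a window. The shorter TGACG was found in 7 of 8 members, all but Jun, and in 23.0% of all genes. The CArG box, sought as CCWWWWWWGG with W for A or T, was found in 1 of 8, Egr2, against 1.81% of all genes. A box outside the window or with other letters would be missed. The Egr site was found in 2 of 8, Fosb and Nr4a1, against 3.31%. The TATA box letters TATAAA were found in 2 of 8, Fos and Junb, against 15.7%. In Fos they lie 33 to 28 bases before the start, while in Junb they begin at the start site itself. The AP-1 site TGACTCA, which FOS and JUN proteins bind, was found in 0 of 8 members and in 5.95% of all genes. A match describes these letters in this window and does not show that a factor was bound.

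The arrays differed in brightness. Spots well above background made up between 63.9%, for TRAMP after TmT, and 74.1%, for C57BL/6 after oil, of 43379 spots, and the 75th percentile of the signal lay between 70.8 and 161. Levels below are therefore log2 values with 0 at the 75th percentile of the same array, and they are compared only within a probe. All 10 members were well above background on all 4 arrays, no spot was saturated, and 1 probe of Ier2, A_52_P554555, was not well above background on any array. All 10 markers of prostate luminal epithelium were well above background on every array, and their summed linear level, in multiples of the 75th percentile, was 1215, 1491, 575 and 968 in the order C57BL/6 oil, C57BL/6 TmT, TRAMP oil and TRAMP TmT. All 5 seminal vesicle genes were also well above background on every array, with sums of 1788 to 2154. Adipocyte genes summed to 56.1 on the array of TRAMP after oil and to 7.51 to 13.2 on the others, while fibroblast genes summed to 66.8 there and to 117 to 140 elsewhere. In whole tissue, fewer cells of a type and less RNA per cell cannot be told apart.

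**Figure D1:**
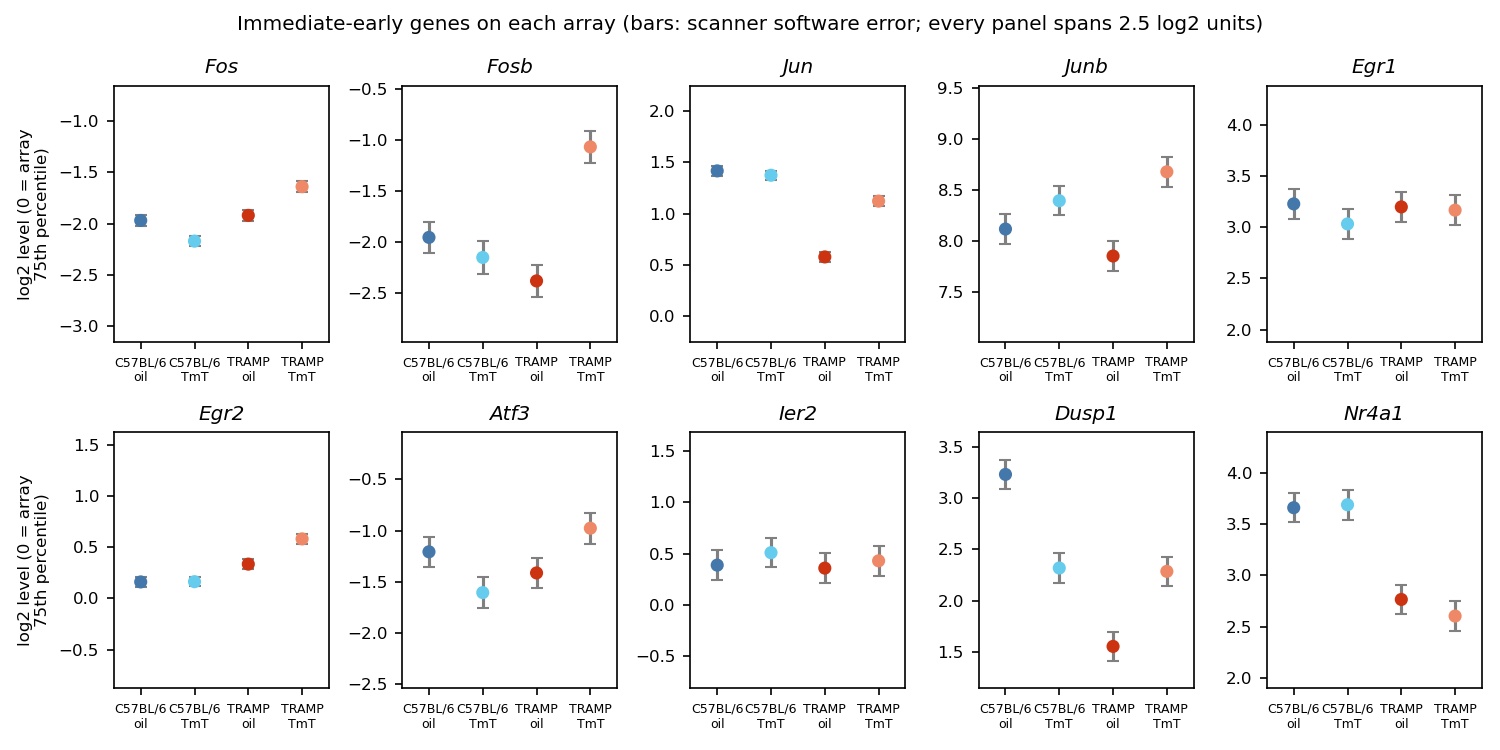
Level of each member on each of the 4 arrays, in log2 units relative to the 75th percentile of the array, with bars for the scanner software's error. Each panel spans the same 2.5 log2 units, so the wide spread of Dusp1 and Fosb can be set beside the narrow one of Egr1 and Ier2.

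FOS and FOSB pair with JUN proteins to form AP-1, the factor most closely tied to the early response. The Fos level was -1.97 in C57BL/6 after oil, -2.17 in C57BL/6 after TmT, -1.92 in TRAMP after oil and -1.64 in TRAMP after TmT. TRAMP after TmT was thus the highest and C57BL/6 after TmT the lowest, with the 2 oil arrays between them. TRAMP exceeded C57BL/6 by 0.53 ± 0.08 after TmT and by 0.05 ± 0.07 after oil, the latter within its error. TmT and oil differed by -0.20 ± 0.07 in C57BL/6 and by 0.28 ± 0.08 in TRAMP. The sign in C57BL/6 changed, to 0.06, with the normexp correction in place of the scanner's. That alternative also added an offset of 50 intensity units to every spot, more than the Fos signal itself. Which of these steps changed the sign was not tested. The Fos probe was printed 10 times on each array and lies at chr12:86817900-86817959 (mm9, plus strand). At the 9 positions usable on both TmT arrays the TRAMP spot was the higher at 9, and at the 9 usable on both C57BL/6 arrays the TmT spot was the higher at 1. Fos was dim, at 22.8 to 41.1 intensity units.

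Fosb showed a single high array after scaling. Its level was -1.95 in C57BL/6 after oil, -2.15 in C57BL/6 after TmT, -2.38 in TRAMP after oil and -1.07 in TRAMP after TmT. TRAMP after TmT was higher than TRAMP after oil by 1.31 ± 0.22 and higher than C57BL/6 after TmT by 1.08 ± 0.22. The other 3 arrays lay within 0.43 of each other, the difference between the lines after oil being -0.43 ± 0.22 and that between TmT and oil in C57BL/6 being -0.20 ± 0.22. Of all genes measured on both arrays, 3.76% were as much higher in TRAMP after TmT than after oil as Fosb or more. The Fosb probe (chr7:19888477-19888536, mm9, minus strand) has 1 spot per array. Before scaling it read 41.6 and 26.1 intensity units in C57BL/6 after oil and TmT, and 25.9 and 33.8 in TRAMP. C57BL/6 after oil was thus the brightest before scaling. Under the normexp correction the TmT difference was 0.66 in TRAMP and 0.023 in C57BL/6. That between the lines was 0.54 after TmT and -0.094 after oil.

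Jun, the main partner of the FOS proteins, had its lowest level in TRAMP after oil. The level was 1.42 in C57BL/6 after oil, 1.37 in C57BL/6 after TmT, 0.58 in TRAMP after oil and 1.12 in TRAMP after TmT. The 2 C57BL/6 arrays did not differ beyond the error, at -0.04 ± 0.07, and both were above the TRAMP arrays. TRAMP minus C57BL/6 was -0.84 ± 0.07 after oil and -0.25 ± 0.07 after TmT, while TmT exceeded oil in TRAMP by 0.55 ± 0.07, or by 0.29 under normexp. The probe (chr4:94715864-94715923, mm9, minus strand) was printed 10 times, and the TRAMP spot was lower at 9 of 9 usable positions in both treatments. The TmT spot was higher at 9 of 9 in TRAMP and at 3 of 9 in C57BL/6. Spots of an array varied with an SD of 0.08 to 0.14. They repeat 1 probe on 1 array, so neither this SD nor the counts of positions measure the spread between mice.

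**Figure D2:**
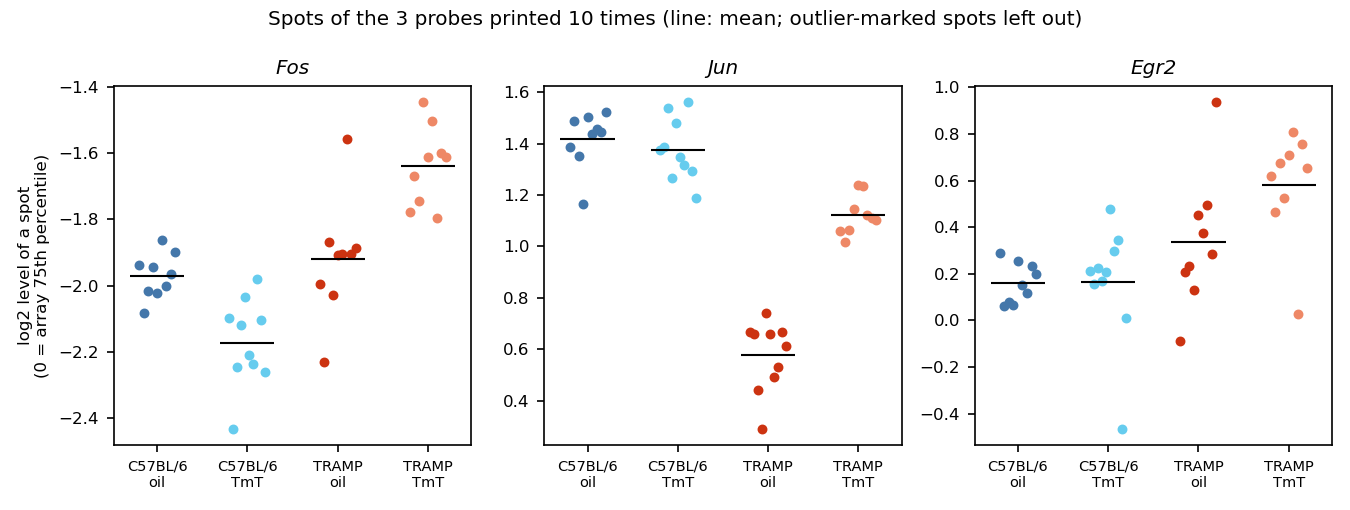
Single spots of the 3 members whose probe was printed 10 times, Fos, Jun and Egr2, on each array, with lines at the means and without spots marked as outliers, in log2 units relative to the 75th percentile. Jun spots of TRAMP after oil lie apart from all spots of the other arrays, while Egr2 spots overlap between all arrays.

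Junb, a JUN family member that is itself induced early, was read by a pair of probes that disagreed. The brighter probe, A_51_P159194, had levels of 8.12 and 8.39 in C57BL/6 after oil and TmT, and of 7.85 and 8.68 in TRAMP after oil and TmT. It was higher after TmT in both lines, by 0.28 ± 0.20 in C57BL/6 and by 0.82 ± 0.20 in TRAMP, the latter 0.40 under normexp and 0.37 with quantile normalization. The dimmer probe, A_51_P159201, had levels of -1.02 and 1.17 in C57BL/6 after oil and TmT, and of -0.86 and -1.43 in TRAMP. On it C57BL/6 after TmT stood out, 2.18 ± 0.17 above C57BL/6 after oil, and TRAMP after TmT was the lowest, -0.57 ± 0.19 from TRAMP after oil. The TRAMP minus C57BL/6 difference after TmT was 0.28 ± 0.20 on the brighter probe and -2.60 ± 0.22 on the dimmer. With the mean of both probes it was -1.16, so neither its sign nor its size can be taken from these arrays. The intensities were 28996 to 44711 for the brighter probe and 26.2 to 260 for the dimmer, although the probes share the 22 bases printed above and lie on the same transcript. Which of them measured Junb was not tested, and the brighter probe stands for the gene elsewhere in the text.

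**Figure D3:**
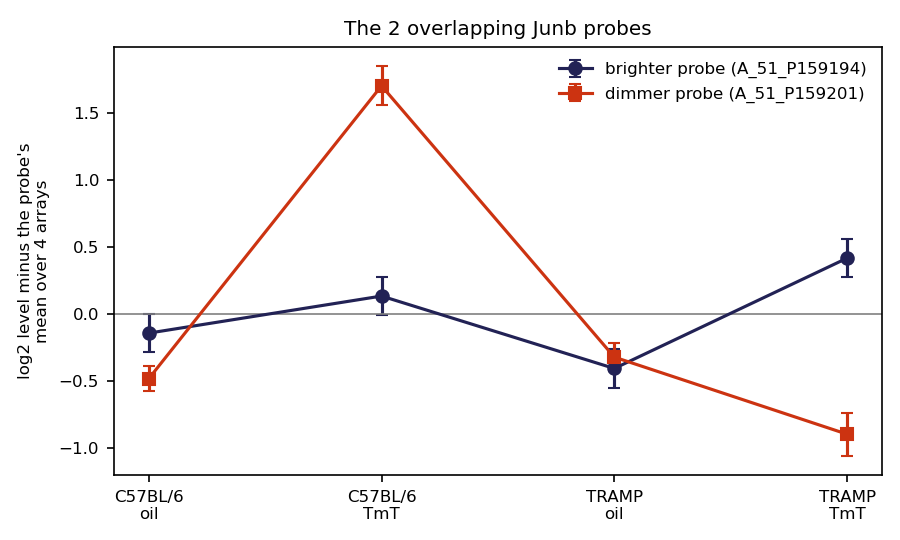
Level of the 2 overlapping Junb probes on the 4 arrays, each minus its own mean over the arrays, in log2 units with the scanner software's error. The probes part on the 2 TmT arrays, where the dimmer is high in C57BL/6 and low in TRAMP.

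Atf3, a stress-induced factor of the CREB family that also pairs with JUN, had levels of -1.21, -1.61, -1.41 and -0.98 in C57BL/6 after oil, C57BL/6 after TmT, TRAMP after oil and TRAMP after TmT. TRAMP after TmT was the highest and C57BL/6 after TmT the lowest, a difference of 0.63 ± 0.21. Before scaling, the Atf3 signal was lowest in TRAMP after TmT, at 36.0 intensity units against 69.7, 38.1 and 50.6 on the arrays before it in this order. The oil arrays differed by -0.21 ± 0.21, TmT and oil by -0.40 ± 0.21 in C57BL/6 and by 0.44 ± 0.21 in TRAMP. Under normexp the Atf3 difference between the lines was 0.33 after TmT and -0.025 after oil, and that between TmT and oil in C57BL/6 was -0.063.

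The zinc finger factors EGR1 and EGR2 bind the GC-rich site given above. Egr1 levels were 3.23 in C57BL/6 after oil, 3.03 in C57BL/6 after TmT, 3.20 in TRAMP after oil and 3.17 in TRAMP after TmT. All 4 comparisons lay within 0.20 of 0 with errors of 0.20, so no order of the arrays can be read for it. Under normexp the TmT difference in TRAMP was -0.37. Egr2, known also from nerve myelination, had levels of 0.16, 0.16, 0.34 and 0.58 on the arrays in the same order. The C57BL/6 arrays were equal to the second decimal, and TRAMP was higher by 0.17 ± 0.07 after oil and by 0.42 ± 0.07 after TmT. The TRAMP spot was the higher at 8 of 9 positions in either treatment, but the SD over positions was 0.29 after oil and 0.35 after TmT, so single spots overlapped between all arrays. Under normexp the Egr2 difference between the lines after TmT was 0.24.

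NR4A1 is an orphan nuclear receptor induced by many of the same signals. Nr4a1 was lower on both TRAMP arrays. Its level was 3.66 in C57BL/6 after oil and 3.69 after TmT, and 2.77 in TRAMP after oil and 2.60 after TmT. Both TRAMP arrays lay below both C57BL/6 arrays, by -0.90 ± 0.20 after oil and -1.09 ± 0.20 after TmT, and TmT and oil differed by 0.03 ± 0.20 in C57BL/6 and -0.16 ± 0.20 in TRAMP, the latter -0.49 under normexp. Of all genes measured on both arrays, 8.94% were as low or lower in TRAMP after oil and 5.08% after TmT. The probe lies at chr15:101105071-101105130 (mm9, plus strand). The genotype difference stayed between -1.35 and -0.75 in both treatments under every processing alternative tried.

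Dusp1 encodes a phosphatase that inactivates MAPK and so ends the signal that induces it, and it varied most among the members. Its level was 3.23 in C57BL/6 after oil, 2.32 in C57BL/6 after TmT, 1.55 in TRAMP after oil and 2.29 in TRAMP after TmT. The 2 oil arrays held the highest and the lowest level, and the 2 TmT arrays lay between them and did not differ beyond the error, at -0.03 ± 0.20. The TRAMP minus C57BL/6 difference after oil was -1.68 ± 0.20, with 1.85% of all genes as low or lower. TmT and oil differed by -0.91 ± 0.20 in C57BL/6, where 3.22% of genes were as low or lower, and by 0.73 ± 0.20 in TRAMP, where 14.7% were as high or higher. The probe lies at chr17:26642796-26642853 (mm9, minus strand). The oil difference stayed between -1.72 and -1.52 under the alternatives, while the TmT difference in TRAMP ranged from 0.33 to 0.77.

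Ier2, which encodes a nuclear protein of the early response, was the flattest member. Its brighter probe read 0.39, 0.51, 0.36 and 0.43 on the arrays in the order used above, a range of 0.15 beside an error of 0.14 to 0.15 on each array.

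**Figure D4:**
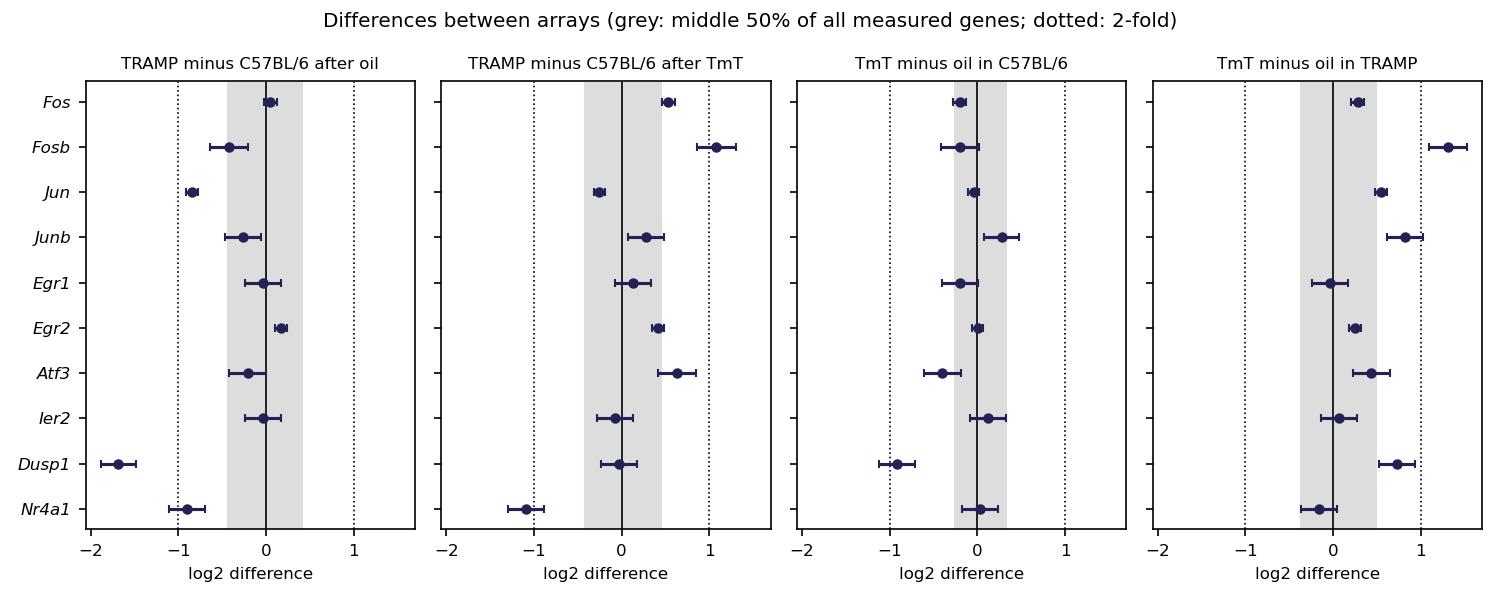
Differences between arrays for the 10 members in the 4 comparisons, in log2 units with the scanner software's error, over a grey band that holds the middle 50% of all measured genes; dotted lines mark 2-fold. Dusp1 after oil, Nr4a1 after TmT and Fosb in both TmT comparisons of TRAMP lie past 2-fold.

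Counted over the members, the lines after oil gave 1 of 10 at least 2-fold lower in TRAMP, Dusp1, and 0 higher, where 7.08% of all 18900 measured genes were that much lower and 8.34% higher. The median of the members was -0.24 against -0.03 over all genes, and 2 of 10 were above 0. This median was -0.064 under normexp and -0.13 with quantile normalization. After TmT 1 member, Fosb, was at least 2-fold higher in TRAMP and 1, Nr4a1, lower, against 8.19% and 6.32% of 17292 genes. Their median was 0.21 against -0.00, but it was -0.04 under the normexp correction. The counts past 2-fold are near what the background shares give for 10 genes and are no result about the members as a group. Under normexp the genes past 2-fold also split otherwise: 42.5% of them were higher in TRAMP after oil in place of 54.1%, and 28.6% after TmT in place of 56.4%, or 45.7% after TmT with median centring.

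TmT and oil in C57BL/6 differed by at least 2-fold in 0 of 10 members in either direction, where 3.38% of 18719 genes were higher and 2.49% lower. The median of the members was -0.12 against 0.04 over all genes. Of the genes past 2-fold 57.6% were higher, 72.5% under normexp and 44.3% without the background filter. In TRAMP 1 of 10 was at least 2-fold higher after TmT, Fosb, and 0 lower, where 8.01% of 17428 genes were higher and 5.31% lower. Of the 10 members 8 were above 0 there, with a median of 0.36 against 0.07 over all genes, and the median was 0.28 to 0.45 under the alternatives. The 4 comparisons share arrays in pairs, so the array of TRAMP after oil enters both the low values after oil and the high values of TmT over oil in TRAMP. TRAMP after oil held the lowest level of 5 of 10 members and the highest of 0, and TRAMP after TmT held the highest of 5 and the lowest of 1. Junb is counted in both by its brighter probe, while its dimmer probe was lowest, at -1.43, in TRAMP after TmT. Before scaling, the dim Fos and Atf3 had their lowest signal in TRAMP after TmT, where their scaled level was highest. How often all genes had an extreme on these arrays, or a difference above 0, was not counted. These member counts are therefore no result about the members as a group. The array of TRAMP after oil also held the lowest summed luminal, basal, fibroblast and endothelial levels and the highest adipocyte one, and their part in the member values was not tested.

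Both factors were fitted over all 4 arrays with limma. Its error combines the interaction, the only residual of a gene, with a prior taken over all genes. For genotype 0 of 10 members passed an adjusted p of 0.05, as did 0% of 19823 genes, and the lowest adjusted p of any gene was 0.0679. At an unadjusted p under 0.05 there was 1 of 10 members, against 14.8% of all genes. This was Nr4a1, with a fitted difference of -0.99 ± 0.32 (SE) and an adjusted p of 0.270 by limma. Dusp1 had -0.86 ± 0.48 (SE) and an adjusted p of 0.457 by limma, and Jun -0.55 ± 0.34 (SE) and 0.500. Under the normexp correction 2 members passed for genotype by limma, Nr4a1 at -1.13 with an adjusted p of 0.00133 and Dusp1 at -0.86 with 0.0341, where 682 genes were called higher and 842 lower. For treatment 0 of 10 passed the adjusted threshold and 0 of 10 the unadjusted one in limma, against 0% and 6.13% of all genes. The fitted treatment difference was 0.56 ± 0.46 (SE) for Fosb, with an adjusted p of 0.812, and 0.55 ± 0.34 (SE) for Junb, with 0.778.

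The genes most like the mean pattern of the members over the 4 arrays were sought among the 16875 genes well above background on all of them. The pattern itself was 0.14, -0.01, -0.28 and 0.15 around its mean, in the order used above. Mdga1, Rabep2, Meis3 and Tubg2 were among the 5 nearest, with root mean square distances of 0.009 to 0.025. Single members lay much farther from their own mean, from 0.162 for Ier2 at rank 1579 to 0.484 for Nr4a1 at rank 12212.

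Of 32 other immediate-early genes, 28 were measured on both oil arrays, and 1 was at least 2-fold higher and 4 lower in TRAMP (median -0.28). Over all genes 8.34% were higher and 7.08% lower there. After TmT 8.19% of all genes were higher and 6.32% lower in TRAMP. For TmT over oil the shares were 3.38% and 2.49% in C57BL/6 and 8.01% and 5.31% in TRAMP. Ptgs2, the inducible cyclooxygenase, had levels of -1.04 and -0.48 in C57BL/6 after oil and TmT, and of -3.65 and -0.15 in TRAMP. TRAMP after oil was thus far below the other arrays, by -2.61 ± 0.17 from C57BL/6 after oil, and TmT exceeded oil in TRAMP by 3.51 ± 0.16. Ier3, a survival gene of the early response, was likewise lowest in TRAMP after oil, at -3.22 against -0.91 in C57BL/6 after oil, -2.03 in C57BL/6 after TmT and -1.90 in TRAMP after TmT. On the array of TRAMP after oil, Ptgs2 and Ier3 were dimmer than Fos and Fosb, so these differences rest on a low signal. Arc, best known from neurons, was higher in TRAMP by 1.17 ± 0.23 after oil and 2.10 ± 0.24 after TmT. After TmT 1 of 27 genes of this list was higher and 1 lower in TRAMP, the latter Zfp36, which speeds the decay of cytokine transcripts, at -1.13 ± 0.20. TmT over oil gave 1 higher and 2 lower of 30 in C57BL/6, with a median of 0.15, and 3 higher and 0 lower of 27 in TRAMP, with a median of 0.30. In C57BL/6 Egr4 was higher by 1.54 ± 0.34, and Tiparp, a target of the aryl hydrocarbon receptor, differed by -1.79 ± 0.22.

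Feedback regulators gave 0 higher and 3 lower of 15 in TRAMP after oil (median -0.13) and 3 higher and 0 lower of 15 for TmT over oil in TRAMP, with a median of 0.25. Over all genes 8.34% were higher and 7.08% lower in the former comparison, and 8.01% and 5.31% in the latter. Dusp4, a nuclear MAPK phosphatase like Dusp1, had levels of 2.48 and 1.31 in C57BL/6 after oil and TmT and of 1.20 and 3.18 in TRAMP. TRAMP after TmT was the highest of the 4, and C57BL/6 after TmT and TRAMP after oil were the lowest and did not differ beyond their errors. The Dusp4 differences were -1.28 between the lines after oil, 1.87 after TmT, -1.17 for TmT over oil in C57BL/6 and 1.98 in TRAMP, each ± 0.20. Dusp6, a cytoplasmic MAPK phosphatase, was higher by 1.16 ± 0.20 after TmT in TRAMP, at 3.56 against 2.40. After TmT 1 of 15 was higher and 0 lower in TRAMP, against 8.19% and 6.32% of all genes. TmT over oil in C57BL/6 gave 0 higher and 2 lower of 17, against 3.38% and 2.49%.

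Upstream kinases and factors gave 1 higher and 0 lower of 24 in TRAMP after oil, and 2 higher and 2 lower of 24 after TmT. The shares of all genes were 8.34% and 7.08% after oil, and 8.19% and 6.32% after TmT. Srf, whose product binds the CArG box, stood highest in C57BL/6 after TmT, at 3.47 against 2.28 in C57BL/6 after oil, 1.79 in TRAMP after oil and 1.96 in TRAMP after TmT. The SRF coactivator gene Mkl1 was higher in TRAMP by 1.25 ± 0.20 after oil and 1.31 ± 0.20 after TmT. TmT over oil gave 1 higher and 0 lower of 24 in C57BL/6, against 3.38% and 2.49% of all genes. In TRAMP it gave 0 higher and 2 lower of 24, against 8.01% and 5.31%. The CREB relative Atf1 was among the lower, at -1.06 ± 0.20.

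Among known AP-1 and Egr target genes, 1 was at least 2-fold higher and 1 lower of 13 in TRAMP after oil, and 0 higher and 1 lower of 11 after TmT. Over all genes the shares were 8.34% and 7.08% after oil, and 8.19% and 6.32% after TmT. Plau, the urokinase gene and a classical AP-1 target, had levels of 3.96 and 4.66 in C57BL/6 after oil and TmT and of 2.91 and 5.15 in TRAMP. It was higher after TmT in both lines, by 0.70 ± 0.20 in C57BL/6 and by 2.24 ± 0.20 in TRAMP, and lowest in TRAMP after oil. TmT over oil gave 0 of 14 past 2-fold in C57BL/6, with a median of 0.27, and 1 higher and 0 lower of 11 in TRAMP, with a median of 0.32. Over all genes 3.38% were higher and 2.49% lower in C57BL/6 (median 0.04), and 8.01% and 5.31% in TRAMP (median 0.07). By limma 0 genes of these 4 lists passed the adjusted threshold for genotype or treatment. At an unadjusted p under 0.05 there were 2 of 31 other immediate-early genes for genotype and 3 of 31 for treatment, 3 of 24 and 2 of 24 upstream genes, 0 of 17 feedback genes for either, and 2 of 14 and 1 of 14 target genes. Over all genes the limma shares at this threshold were 14.8% for genotype and 6.13% for treatment.

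Heat shock genes respond to protein damage and other stress, and their summed linear level was 466 in C57BL/6 after oil, the array highest for Dusp1, and 327 to 339 on the others. Hspa1a, the inducible HSP70, had levels of 4.25 in C57BL/6 after oil, 2.02 in C57BL/6 after TmT, 0.54 in TRAMP after oil and 1.77 in TRAMP after TmT, so that C57BL/6 after oil was the highest and TRAMP after oil the lowest, as for Dusp1. Its near-identical copy Hspa1b can share signal with its probe. Of 12 heat shock genes 5 were at least 2-fold lower and 0 higher in TRAMP after oil (median -0.75), and 3 were lower and 0 higher after TmT in C57BL/6, with a median of -0.74. Over all genes 7.08% were lower and 8.34% higher in the former comparison, and 2.49% and 3.38% in the latter. Both comparisons subtract the array of C57BL/6 after oil. After TmT 0 of 12 passed 2-fold between the lines, and TmT over oil in TRAMP gave 1 higher and 0 lower, with medians of -0.11 and 0.09. Over all genes 8.19% were higher and 6.32% lower in the former, and 8.01% and 5.31% in the latter. By limma 0 of 12 passed for genotype or treatment, adjusted or not. Unadjusted, 14.8% of all genes passed for genotype and 6.13% for treatment, and adjusted 0% did. The part of the heat shock genes in the Dusp1 values was not tested.

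**Figure D5:**
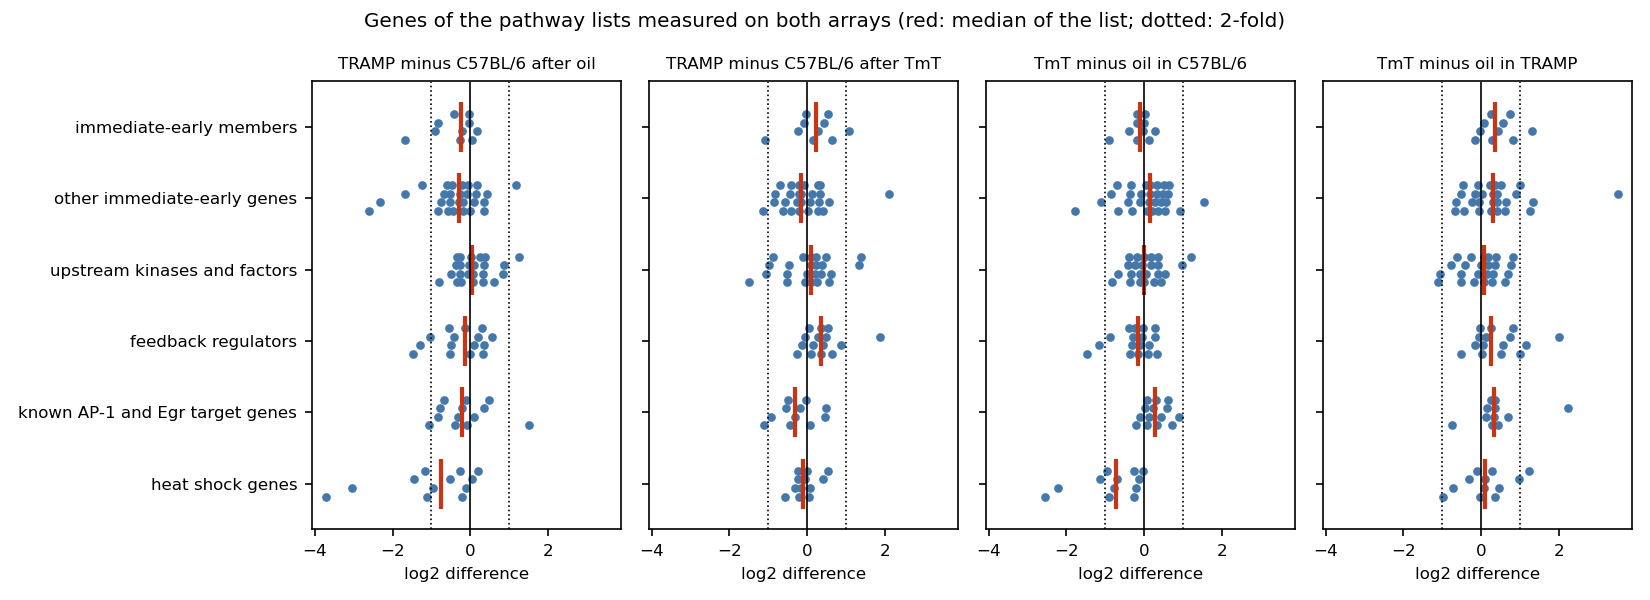
Each measured gene of the members, the other pathway lists and the heat shock genes in the 4 comparisons, in log2 units, with a red bar at the median of the list and dotted lines at 2-fold. The heat shock genes have their lowest medians, -0.75 and -0.74, in the comparisons where Dusp1 is lowest.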

How the data were processed

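RNA of 4 groups of mouse prostate was measured on 1-colour (Cy3) arrays, 1 per group. The deposited values are linear intensity per spot, background-subtracted and detrended within the array by Agilent Feature Extraction 10.2.1.3, per the file headers. Multiplicative detrending was off for TRAMP after TmT, and all arrays lay on 1 slide with 1 scan time. The deposited value table held the same intensity, equal within 0.1% for all 45018 features of each array, so it is linear and not centred.

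Control spots and outlier-marked spots (131 to 348 per array) were left out, and log2 of each array's 75th percentile was subtracted from the log2 intensity. Spots of a probe were averaged, and the probe brightest over the 4 arrays stood for its gene. Names are those of the array design, with older symbols matched through the RefSeq table. Exons and untranslated regions under the probes (mm9) were not looked up. The number of arrays limits the precision.

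Differences between 2 arrays were counted past 2-fold among genes well above background on both. An additive model of genotype and treatment was fitted with limma 3.58.1 in R 4.3.3 (lmFit, eBayes, Benjamini-Hochberg over 19823 genes above background on at least 2 arrays). It leaves 1 residual degree of freedom, the interaction, and a prior of 4.10 degrees of freedom with an SD of 0.349. The members and lists were chosen with earlier results of these data known. The text names all members, genes from the 5 nearest their mean pattern, and of each list genes from its 2 highest and 2 lowest differences per comparison. Some genes that this rule takes are not reported here. Alternatives were the background correction, detrending, scaling, probe averaging, background filter, outlier marks, the deposited table and a 3-fold threshold. The normexp background correction added an offset of 50 intensity units to every spot, which draws differences of dim genes towards 0.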

Additional observations from a re-analysis of the deposited data

Results flagged for a closer look

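For 2 members the single array of each line moved in opposite directions between oil and TmT, by more than 2 scanner errors in each line. The Dusp1 difference, TmT minus oil, was -0.91 in C57BL/6 and 0.73 in TRAMP. The Fos difference was -0.20 in C57BL/6 and 0.28 in TRAMP, but under normexp both had 1 direction, at 0.063 and 0.38. With 1 array per group the difference between the lines was not tested. As a description over 16875 genes, the TmT difference in TRAMP minus that in C57BL/6 was 1.65 for Dusp1 and 1.51 for Fosb, and 3.02% and 3.88% of genes were as high or higher.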

How the results depend on the processing

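Of the values tried for single members, 188 equalled the reported value, many because the alternative could not change them (a gene with 1 probe, or above background anyway). A further 332 moved by less than the scanner error or, for fitted differences, stayed on their side of the threshold, 38 moved further and 2 passed the limma threshold under the normexp correction alone (Nr4a1 and Dusp1 for genotype). For the list genes 437 equalled the reported value, 988 moved by less than their error, 229 moved further and 2 turned: Spp1 between the lines after TmT was 0.034 under normexp in place of -1.12, and Mapk8 was -0.46 with the mean over all probes in place of 1.37. Members at least 2-fold higher in TRAMP after TmT numbered 0 in place of 1 under normexp, median centring and the 3-fold threshold. Members lower there numbered 0 with quantile normalization and the 3-fold threshold, and 2 with the mean over all probes. With that mean 1 member, Junb at 1.23, was higher after TmT in C57BL/6 in place of 0. For TmT over oil in TRAMP 0 members were higher in place of 1 under normexp and the 3-fold threshold. The limma counts over all genes rested on the processing most. For genotype, 0 higher and 0 lower became 682 and 842 under normexp, 32 and 12 with quantile normalization, 71 and 31 with median centring, 3 and 1 without a background filter, and 102 and 44 with genes above background on all 4 arrays, while the signal before multiplicative detrending gave 5 lower. For treatment, 0 and 0 became 167 and 89 under normexp, where 2 members were called for genotype, and 2 were lower before multiplicative detrending. The cause was not tested. Scaling to the 75th percentile over all spots was added after seeing the data. No paired analysis was possible because each group has 1 array and the labels give no replicate numbers, and for the same reason no replicate could be left out. Members with a low intensity, Fos, Fosb and Atf3, are limited by signal over background.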
